A study of Caenorhabditis elegans with 9 samples.

Results

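The genes described here are 48 sarcomere and muscle attachment genes of the nematode Caenorhabditis elegans, taken as a fixed list of symbols and matched to the gene identifiers of the count files. All 48 of the 46926 annotated genes were found, and all 48 were among the 17512 genes with enough counts to be tested. The list holds the thick and thin filament proteins, the troponins, the giant proteins, the integrin-based attachment sites called dense bodies and M-lines, dystrophin, and the calcium channel and pump of muscle. It joins genes of the body wall muscle, which moves the animal, with genes of the pharynx, the pumping organ that takes in food.

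In striated muscle, myosin heads on thick filaments pull on actin thin filaments, and calcium starts the pull by acting on troponin, a complex of an inhibitory subunit (I), a calcium-binding subunit (C) and a subunit that binds tropomyosin (T). In the body wall muscle of C. elegans each sarcomere is anchored to the cell membrane and the matrix beyond it through integrin, with dense bodies holding the thin filaments and M-lines the thick filaments. The worm has separate genes for several of these proteins in pharyngeal and in body wall muscle, and many were found as uncoordinated (unc) mutants or as mutants paralysed and arrested as elongating embryos (pat).

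Poly(A)-selected RNA from whole animals, young adults per the design text, was sequenced in 9 libraries, 3 each with the genotype labels WT, UNC5 and PATR1. The study's design text describes a wild type and an unc-5 mutant with a stop codon in the gene for a netrin receptor that guides axons and migrating cells. The labels do not say which mutant label carries that allele or what PATR1 stands for, and name no further allele, treatment or sex. Nothing states that replicates came from separate cultures, so the p-values reflect how far these libraries varied, possibly for technical reasons only. Levels in RNA of whole animals are relative to the rest of the RNA. Fewer muscle cells, less RNA per muscle cell and more RNA from other tissues therefore cannot be told apart.

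Counts per library ran from 38673206 to 60642199, and a single member had 362 to 270961 counts in a library, so counting error was small. A level is given in CPM, the usual depth-scaled count, and as mean ± SD over the 3 libraries of a group where the single values are not listed. Reads without a place in the genome were 0.621% to 0.629% of reads in WT, 0.667% to 0.937% in UNC5 and 2.86% to 6.02% in PATR1, highest in PATR1 replicate 1. unc-5 itself averaged 17.8 CPM in WT, 10.1 in UNC5 and 13.5 in PATR1. The body wall muscle regulators hlh-1 and unc-120 and the pharyngeal muscle regulator ceh-22 had counts in every library.

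Together the 48 genes took 2.83% to 2.87% of the counts in WT, 2.83% to 2.88% in UNC5 and 1.90% to 1.94% in PATR1. Their summed level was 27380 ± 299 CPM in WT, 28490 ± 506 in UNC5 and 20080 ± 243 in PATR1, so the PATR1 libraries lay below all others and the WT and UNC5 libraries lay close together. The muscle genes of the list thus made up a smaller part of the messenger RNA in PATR1 than in the other groups.

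Levels of different genes were compared per length of their exons, as RPKM, which is CPM divided by exon length in kilobases. In WT the highest was act-4, one of the actin genes, at 2589 ± 90.4 RPKM, followed by mlc-2 (1044 ± 42.7 RPKM) and mlc-1 (852 ± 30.6 RPKM), which encode the regulatory light chain of myosin, and act-2 (835 ± 12.6 RPKM). The levels per length of mlc-1 and act-2 differed by less than the SD of mlc-1. The main body wall myosin gene unc-54 (697 ± 23.3 RPKM), the troponin I gene unc-27 (666 ± 31.4 RPKM), act-1 (651 ± 59.5 RPKM) and the paramyosin gene unc-15 (638.5 ± 19.1 RPKM) formed a series in which each neighbour was within 1 SD of the next. At the low end stood ttn-1, which encodes a titin-like giant protein (3.05 ± 0.0954 RPKM), myo-5 (8.05 ± 0.140 RPKM), the dystrophin gene dys-1 (8.85 ± 0.322 RPKM) and unc-98, a zinc finger gene of the M-line (9.12 ± 0.345 RPKM). The giant genes have many alternative exons, so their level per length is lowered by exons that a given message lacks. The order below mlc-2 also depends on the length used. The longest transcript of the tropomyosin gene lev-11 has 1536 of 2383 exon bases, and that of the light chain gene mlc-3 993 of 1277.

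**Figure D1:**
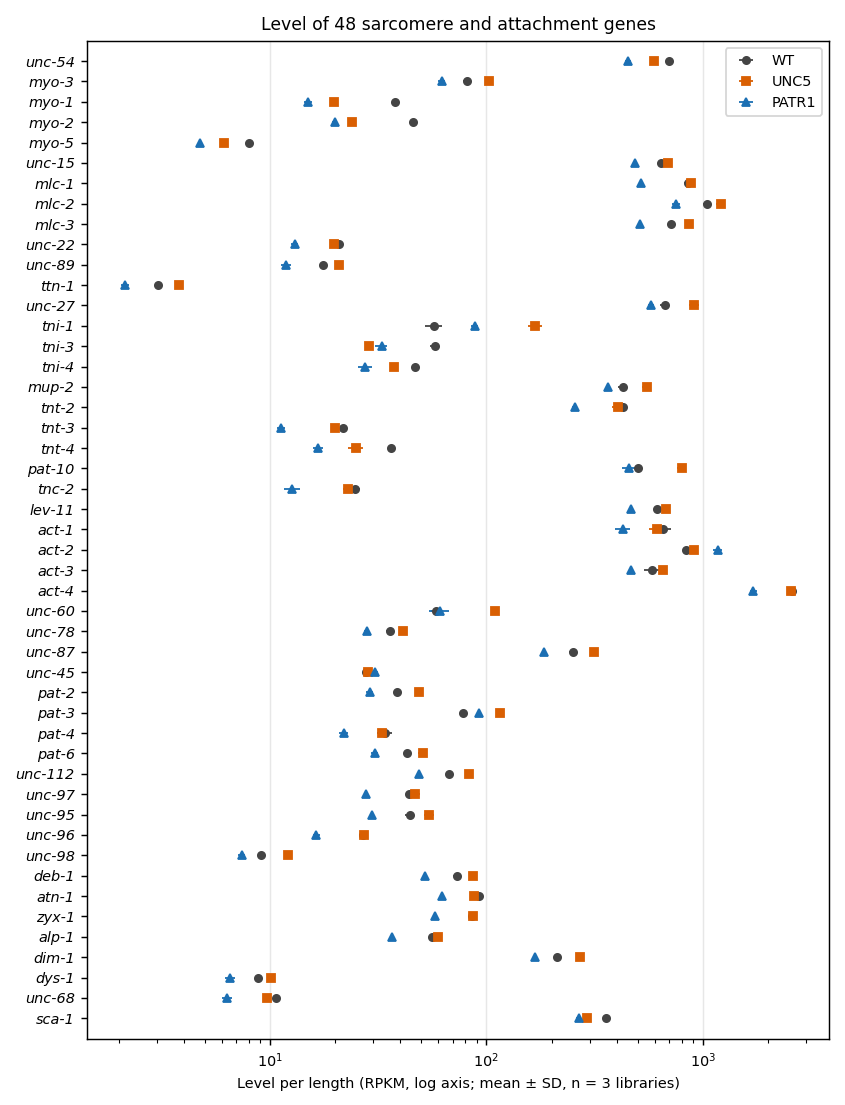
Level per length of the 48 genes (RPKM, log axis), with 1 row per gene and 1 symbol per group at the mean of 3 libraries, error bars SD. act-4 stands highest at 2589 RPKM in WT and ttn-1 lowest at 3.05 RPKM, and for most genes the PATR1 symbol is left of the other two.

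The replicates were close. The median coefficient of variation of the members between libraries of a group was 3.31% in WT, 2.14% in UNC5 and 3.48% in PATR1, against 4.71%, 4.97% and 4.95% over all genes tested. The widest were act-1 in WT (9.14%) and in UNC5 (8.95%) and unc-60 in PATR1 (10.3%). With so little spread a difference of a few percent could pass the test, so the counts of changed members below are set against the share of all genes that changed.

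The PATR1 libraries had lower levels of nearly the whole list than WT. Of the 48 members 43 fell and 4 rose at an adjusted p below 0.05, and unc-60 did not pass, while over all genes tested 44.9% fell and 38.7% rose. The member median was -0.50 on the log2 scale, against -0.11 for all genes, and the middle part of the list, from the lower to the upper quartile, ran from -0.70 to -0.38, against -0.62 to 0.48 for all genes. The falls were moderate: beyond 2-fold were myo-1, myo-2 and tnt-4, 3 genes of the pharynx, where 10.5% of all genes fell by that much. For 47 of the 48 members no PATR1 library reached into the WT range, against 84.0% of all genes. The 4 that rose were tni-1, act-2, unc-45 and pat-3. The count of falling members was 42 or 43 under every alternative tried, although the median of all genes moved from -0.11 to -0.16 with relative log expression factors and to -0.23 with library sizes alone.

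In UNC5 the list went both ways and its changes were smaller. Here 27 members rose, 12 fell and 9 did not pass, while over all genes tested 49.8% rose and 27% fell. The member median was 0.12 against 0.16 for all genes, and 22 of the 48 members lay above that all-gene median. The share of members called in either direction, 81.2%, was near the background of 76.8%. Libraries were separate from WT, above it for 26 members and below it for 12, while 50.4% of all genes lay wholly above, 27.5% wholly below and 77.9% either. Beyond 2-fold were a rise of tni-1 and a fall of tni-3, both troponin I genes, against 7.09% of all genes rising and 13.7% falling by that much.

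Small changes in UNC5 moved with the scaling of the libraries, since the median of all genes was 0.16 with the scaling used, 0.06 with relative log expression factors, 0.11 with library sizes alone and 0.01 when the 6 WT and UNC5 libraries were fitted by themselves. With these 3 alternatives 21, 23 and 18 members rose and 19, 15 and 20 fell, and without a low-count filter 17 rose and 21 fell. Over all genes the share of higher genes among those called went from 64.9% to 49.8% with the 6 libraries alone and to 47.7% without the filter. Of the 39 members called in UNC5, 27 kept call and direction under every alternative, and the other 12 are named as such below.

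The mutant groups differed from each other for all 48 members. In the direct comparison 45 were lower in PATR1 than in UNC5 and 3 (tni-3, act-2 and unc-45) were higher, while of all genes 40.9% were lower, 37.8% higher and 78.7% either. The libraries were separate for every member, 45 wholly lower and 3 wholly higher, against 41.3% and 38.3% of all genes and 79.5% together. No member differed by more than 2-fold, where 9.46% of all genes were higher and 11.5% lower by that much. The member median was -0.64 against -0.04 for all genes. With every alternative 44 or 45 members were lower in PATR1. Of the 48, 23 were above WT in UNC5 and below WT in PATR1, a combination held by 11.1% of all genes, and 12 were below WT in both, against 22.9% of all genes. Both comparisons use the same WT libraries. The opposite calls of 13 of the 23 held under every alternative.

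**Figure D2:**
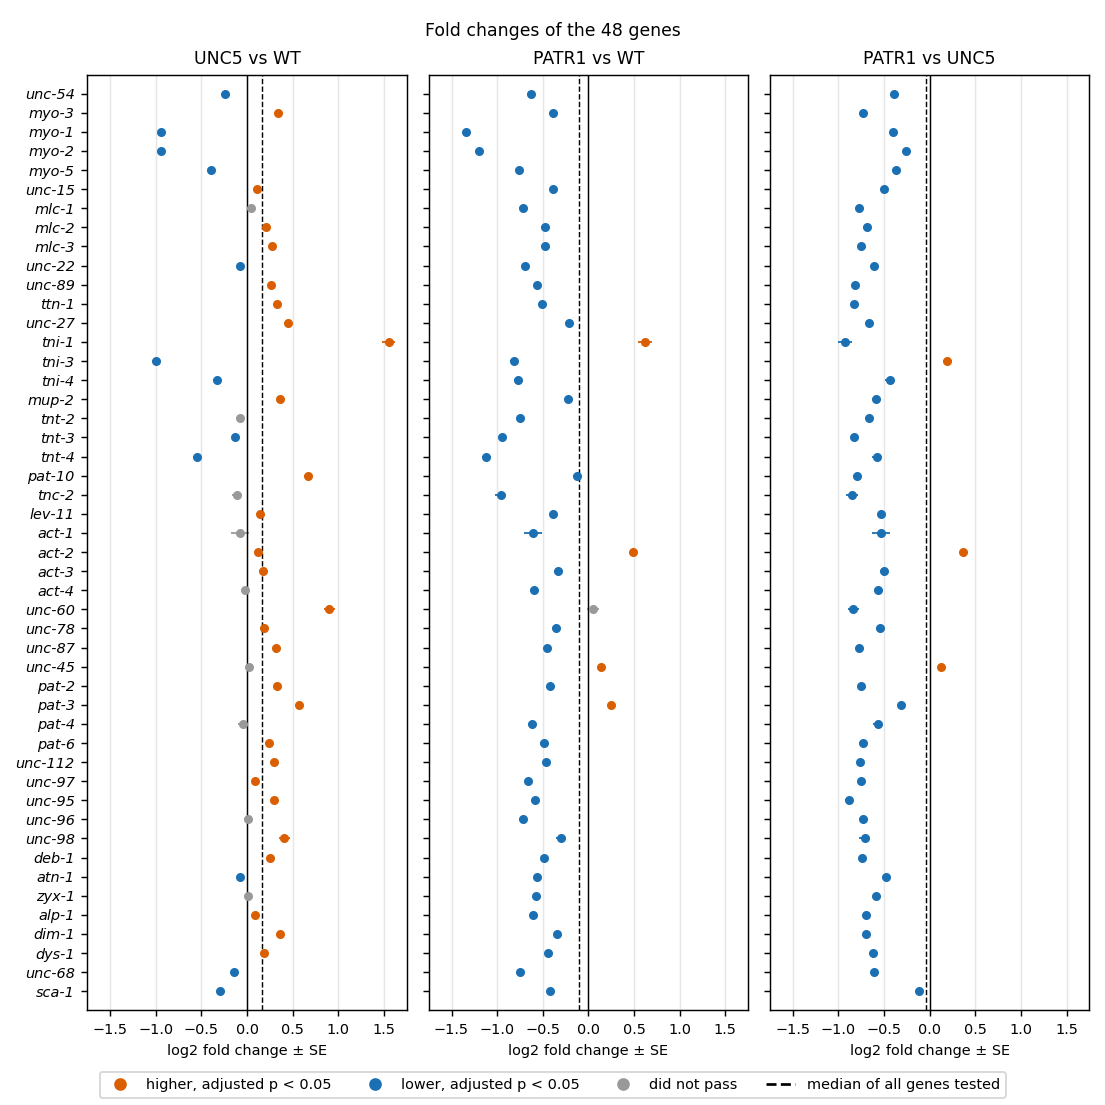
Log2 fold change ± SE of the 48 genes in the 3 comparisons, 1 row per gene, with colour for the call at an adjusted p below 0.05 and a dashed line at the median of all genes tested. In UNC5 against WT the points lie on both sides of that line, and in PATR1 against WT and against UNC5 nearly all lie to its left.

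Among the myosin heavy chains, which form the motor of the thick filament, the pharyngeal genes fell most and the body wall genes split. unc-54 (chromosome I, 14855901 to 14863482, minus strand, WBcel235), the major body wall heavy chain, stood at 4199, 4481 and 4285 CPM in WT, 3606, 3645 and 3759 in UNC5 and 2908, 2768 and 2728 in PATR1. The groups formed 3 separate steps, with a log2 fold change of -0.24 ± 0.039 in UNC5 (adjusted p = 2.2e-06) and -0.63 ± 0.039 in PATR1 (adjusted p = 8.7e-16). myo-3, the minor body wall heavy chain that lies at the centre of the thick filament, stood at 480, 519 and 492 CPM in WT, 628.5, 619 and 640.1 in UNC5 and 395, 368 and 375 in PATR1. It was thus above WT in UNC5 (0.34 ± 0.035) and below it in PATR1 (-0.39 ± 0.035), with no overlap between any of the groups.

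The pharyngeal heavy chains myo-1 and myo-2 fell in both mutant groups. myo-1 read 238, 251 and 245 CPM in WT, 128.5, 129 and 126 in UNC5 and 101, 94.9 and 94.2 in PATR1. Its level in PATR1 was 39.6% of WT (log2 fold change -1.34 ± 0.033, adjusted p = 2.5e-26) and in UNC5 52.2% (-0.94 ± 0.033, adjusted p = 1.8e-22). In PATR1 it was the largest fall of the 48 genes under the fit used. myo-2 (chromosome X, 12468061 to 12475348, plus strand) changed by -0.94 ± 0.032 in UNC5 and -1.20 ± 0.032 in PATR1, and in PATR1 the difference from UNC5 was smaller, -0.26 ± 0.033 (adjusted p = 1.7e-08). myo-5, a further heavy chain gene at 50.7 ± 0.880 CPM in WT, fell to 38.5 ± 0.754 in UNC5 and 29.9 ± 0.641 in PATR1.

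The genes for the other thick filament proteins fell in PATR1, and in UNC5 they changed by 0.27 at most on the log2 scale. unc-15, which encodes paramyosin, the core protein of the thick filament, read 2111, 2218 and 2230 CPM in WT, 2358, 2361 and 2358 in UNC5 and 1695, 1653 and 1647 in PATR1. Its change in PATR1 was -0.39 ± 0.036 (adjusted p = 8.8e-12), and its rise of 0.11 ± 0.036 in UNC5 (adjusted p = 0.0062) turned to -0.06 without a low-count filter and to -0.04 with the 6 libraries alone. The essential light chain gene mlc-3 changed by 0.27 ± 0.034 in UNC5 and by -0.48 ± 0.034 in PATR1. The regulatory light chain genes lie next to each other on chromosome X on opposite strands. In PATR1 mlc-1 changed by -0.72 ± 0.036 and mlc-2 by -0.48 ± 0.038. In UNC5 mlc-1 did not pass (0.04 ± 0.035, adjusted p = 0.26), and the rise of mlc-2 (0.21 ± 0.038) ended with the 6 libraries alone (adjusted p = 0.18) and without the filter (adjusted p = 0.33).

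The giant proteins span or tie together the filaments. unc-22, which encodes twitchin, a giant kinase that acts on myosin, read 487, 491 and 491 CPM in WT, 466, 462 and 461 in UNC5 and 314, 301 and 295 in PATR1. PATR1 lay well below the other groups (-0.69 ± 0.032, adjusted p = 3.8e-19), and the small fall in UNC5 (-0.08 ± 0.032, adjusted p = 0.022) did not pass without UNC5 replicate 2 (adjusted p = 0.059) or without UNC5 replicate 3 (adjusted p = 0.051). unc-89, the obscurin of the M-line, and ttn-1, the titin-like gene, moved together: they rose by 0.26 ± 0.034 and 0.33 ± 0.034 in UNC5 and changed by -0.56 ± 0.035 and -0.51 ± 0.034 in PATR1.

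The troponin I genes had the largest rise and the largest fall of the list in UNC5. tni-1 (chromosome X, 11375887 to 11377470, minus strand) read 65.55, 57.7 and 55.2 CPM in WT, 159, 179 and 184 in UNC5 and 88.3, 95.6 and 90.3 in PATR1. It was 2.93-fold higher in UNC5 (1.55 ± 0.076, adjusted p = 7.6e-08) and 1.54-fold higher in PATR1 (0.62 ± 0.077, adjusted p = 6.1e-05), with 3 separate steps. tni-3 (chromosome V, 16833638 to 16835128, minus strand), a troponin I gene of body wall and egg-laying muscle, went the other way, from 55.2, 56.9 and 51.9 CPM in WT to 26.5, 27.3 and 28.0 CPM in UNC5 and 29.0, 32.9 and 31.5 CPM in PATR1. Its level in UNC5 was 49.8% of WT (adjusted p = 2.4e-19), and its log2 fold change in PATR1 was -0.81 ± 0.044. It was one of the 3 members higher in PATR1 than in UNC5 (0.19 ± 0.049, adjusted p = 7.7e-04). unc-27, the main body wall troponin I, rose to 137% of WT in UNC5 (0.45 ± 0.039, adjusted p = 6.2e-12) and fell to 86.7% in PATR1 (-0.21 ± 0.039, adjusted p = 1.6e-05). The pharyngeal gene tni-4 fell in both, with log2 fold changes of -0.33 ± 0.045 and -0.77 ± 0.046.

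Of the genes for the other troponin subunits, pat-10 and mup-2 rose in UNC5 and fell in PATR1, as unc-27 did, and the pharyngeal ones fell in PATR1, as tni-4 did. pat-10 (chromosome I, 5018783 to 5020358, minus strand), the body wall troponin C, read 492, 483 and 498 CPM in WT, 757, 826 and 760.2 in UNC5 and 414, 446 and 482 in PATR1. UNC5 stood apart above both other groups (0.67 ± 0.044, adjusted p = 1.9e-12), while the fall in PATR1 was small (-0.13 ± 0.044, adjusted p = 0.0077) and did not pass without PATR1 replicate 1 (-0.09, adjusted p = 0.055). mup-2, a body wall troponin T, rose by 0.36 ± 0.037 in UNC5 and changed by -0.22 ± 0.037 in PATR1. tnc-2, the pharyngeal troponin C, read 20.98, 19.1 and 20.9 CPM in WT, 19.3, 17.7 and 19.6 in UNC5 and 9.77, 10.03 and 11.4 in PATR1. It fell to 51.2% in PATR1 (-0.96 ± 0.060, adjusted p = 1.0e-15), whereas in UNC5 it overlapped with WT (-0.11 ± 0.056, adjusted p = 0.08) and passed with 9 of the alternatives.

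The remaining troponin T genes fell in PATR1 by more than mup-2 did. tnt-4, the pharyngeal troponin T, was at 68.4% of WT in UNC5 (-0.55 ± 0.046) and 46.1% in PATR1 (-1.12 ± 0.048, adjusted p = 1.6e-19). tnt-3 changed by -0.13 ± 0.033 in UNC5 and by -0.95 ± 0.034 in PATR1, the largest fall in PATR1 outside the pharyngeal genes. tnt-2, at a level close to mup-2, did not pass in UNC5 (-0.08 ± 0.037, adjusted p = 0.057) and fell in PATR1 (-0.75 ± 0.037, adjusted p = 3.2e-18). lev-11, which encodes tropomyosin, the protein through which troponin acts on actin, read 1496, 1449 and 1443 CPM in WT, 1580, 1615 and 1641 in UNC5 and 1120, 1110 and 1113 in PATR1. Its fall in PATR1 was -0.39 ± 0.034, and its rise of 0.14 ± 0.034 in UNC5 turned to -0.03 without a low-count filter and -0.01 with the 6 libraries alone.

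The actin genes did not move together. act-4 (chromosome X, 4960621 to 4964413, plus strand), the actin gene with the most counts, read 4125, 4012 and 4299 CPM in WT, 4003, 4221 and 4019 in UNC5 and 2791, 2803 and 2626 in PATR1. UNC5 overlapped with WT (-0.02 ± 0.040, adjusted p = 0.62), and PATR1 lay below both (-0.60 ± 0.040, adjusted p = 4.8e-15). act-2 (chromosome V, 11076777 to 11078154, minus strand), which also serves the cortex of early embryos, read 1056, 1066 and 1087 CPM in WT, 1131, 1205 and 1150 in UNC5 and 1442, 1575 and 1481 in PATR1. It rose in PATR1 to 140% of WT (0.49 ± 0.037, adjusted p = 1.3e-13) and was above UNC5 there too (0.37 ± 0.037, adjusted p = 1.6e-10), while its rise of 0.12 ± 0.037 in UNC5 turned to -0.05 without the filter and -0.03 with the 6 libraries alone.

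act-1 and act-3 lie in the same cluster on chromosome V as act-2. In PATR1 act-1 changed by -0.61 ± 0.10 (adjusted p = 0.0010) and act-3 by -0.33 ± 0.043 (adjusted p = 1.4e-07), and the latter did not pass with unstranded counts (-0.13, adjusted p = 0.27). In UNC5 act-1 did not pass (-0.08 ± 0.10, adjusted p = 0.49), and act-3 passed at 0.17 ± 0.043 but not with relative log expression factors (0.07) or with the 6 libraries alone (0.02). The actin genes are near-identical in coding sequence and the files keep multiply placed reads apart from the gene counts, so the values of single actin genes are uncertain. Multiply placed reads were 4.69% to 4.96% of reads in WT, 3.57% to 3.63% in UNC5 and 3.12% to 3.16% in PATR1. The 272 exon bases of act-3 and 150 of act-1 that overlap genes on the other strand bear on the unstranded counts only.

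**Figure D3:**
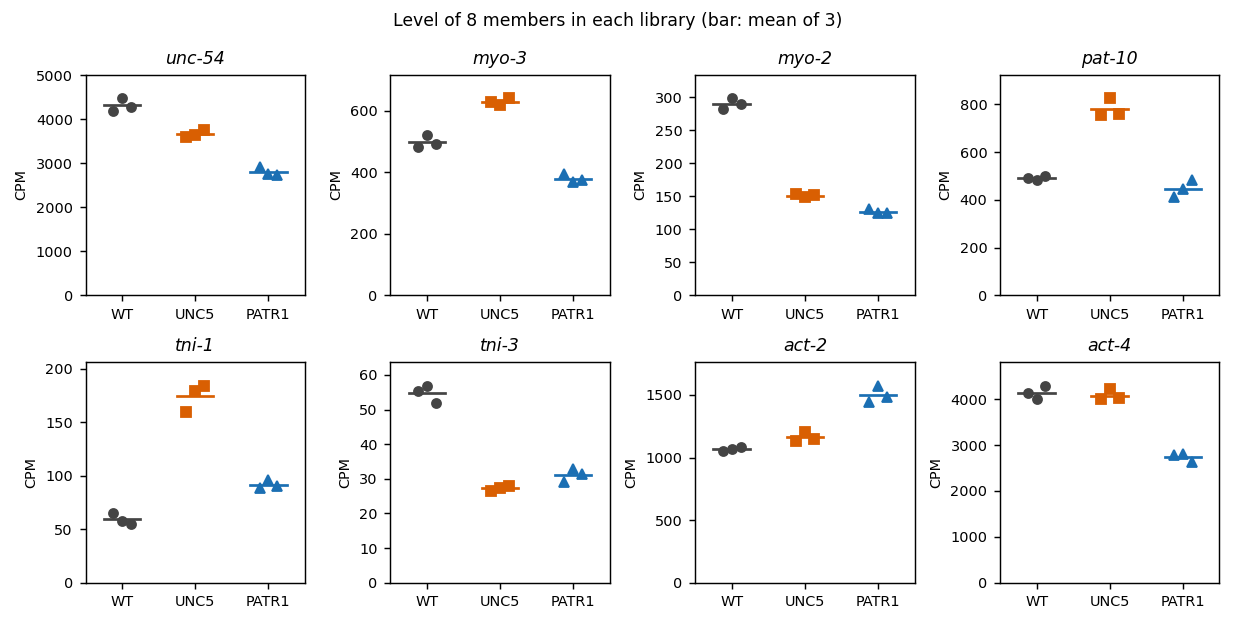
Level of 8 members in each of the 9 libraries (CPM, axes from 0), with a bar at the mean of 3. tni-1 stands highest in UNC5 at 159 to 184 CPM, act-2 highest in PATR1 at 1442 to 1575 CPM, and act-4 overlaps between WT and UNC5 and lies lower in PATR1.

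The actin regulators keep thin filaments ordered and turn them over. unc-60, which encodes cofilin, the actin-severing protein, read 44.0, 39.35 and 42.4 CPM in WT, 76.4, 77.4 and 80.7 in UNC5 and 38.4, 46.5 and 45.7 in PATR1. It was 1.86-fold higher in UNC5 (0.90 ± 0.059, adjusted p = 9.3e-10) and overlapped with WT in PATR1 (0.05 ± 0.061, adjusted p = 0.42), a value that passed without PATR1 replicate 1 (0.13, adjusted p = 0.0081) and was -0.07 with library sizes alone. Another annotated gene shares 56 of its exon bases on the same strand, and the annotation used gives it 1 transcript, so the messages of its muscle and non-muscle cofilins are not resolved here. unc-78, the partner of cofilin, and unc-87, a calponin-like protein that stabilises thin filaments, changed by -0.36 ± 0.036 and -0.45 ± 0.035 in PATR1. In UNC5 unc-87 rose by 0.32 ± 0.035, and the rise of unc-78 (0.19 ± 0.035) ended with the 6 libraries alone (0.04, adjusted p = 0.33) and without the filter (0.02, adjusted p = 0.67).

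At the attachment sites the beta integrin gene stood apart from its partners. pat-3 (chromosome III, 3908931 to 3914149, minus strand), the single beta integrin of the worm, read 224, 224 and 218 CPM in WT, 333, 332 and 324 in UNC5 and 263, 266 and 263 in PATR1. It was above WT in both mutants, by 0.57 ± 0.030 in UNC5 (adjusted p = 1.2e-17) and by 0.25 ± 0.030 in PATR1 (adjusted p = 4.1e-09). pat-2, the alpha integrin that pairs with it in muscle, read 150.1, 160.5 and 151 CPM in WT, 190.3, 199 and 190.1 in UNC5 and 120, 113 and 111.8 in PATR1. It rose in UNC5 (0.33 ± 0.034) and fell in PATR1 (-0.42 ± 0.034, adjusted p = 6.0e-13), so the integrin subunits went in opposite directions in PATR1.

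The genes for proteins that bind the inner face of integrin fell in PATR1. unc-112 (kindlin), pat-4 (integrin-linked kinase), pat-6 (parvin) and unc-97 (PINCH) changed by -0.47 ± 0.032, -0.62 ± 0.046, -0.49 ± 0.040 and -0.66 ± 0.040. In UNC5 unc-112 rose by 0.30 ± 0.032 and pat-6 by 0.24 ± 0.039, the latter not without the low-count filter (0.07, adjusted p = 0.12). pat-4 did not pass (-0.05 ± 0.045, adjusted p = 0.34), and unc-97 passed narrowly (0.09 ± 0.038, adjusted p = 0.033) with libraries that overlapped WT and a sign that turned in 4 alternatives. The LIM domain gene unc-95 and the M-line genes unc-96 and unc-98, whose products bind each other, changed by -0.58 ± 0.043, -0.72 ± 0.044 and -0.30 ± 0.059 in PATR1. In UNC5 unc-95 and unc-98 rose by 0.30 ± 0.041 and 0.41 ± 0.056, and unc-96 did not pass (0.01 ± 0.042, adjusted p = 0.88).

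All 5 dense body genes of the list fell in PATR1, by -0.34 to -0.61, where 43 of all 48 members and 44.9% of all genes fell. deb-1, which encodes vinculin, read 272, 287 and 291.5 CPM in WT, 335, 344.5 and 334 in UNC5 and 204.5, 200.5 and 199.9 in PATR1. It rose in UNC5 (0.25 ± 0.032, adjusted p = 1.6e-08), as did dim-1, an immunoglobulin-domain gene (0.36 ± 0.032, adjusted p = 9.5e-12). The other dense body genes hardly moved in UNC5: atn-1 (alpha-actinin) was at -0.08 ± 0.031 and did not pass without WT replicate 2 (adjusted p = 0.06) or UNC5 replicate 2 (adjusted p = 0.064), zyx-1 (zyxin) at 0.01 ± 0.030 (adjusted p = 0.72) and alp-1, a PDZ and LIM domain gene, at 0.09 ± 0.030. The sign of zyx-1 and alp-1 in UNC5 turned with relative log expression factors, to -0.09 and -0.01.

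The calcium genes fell in both mutants. sca-1, the calcium pump that refills the sarcoplasmic reticulum, read 1428, 1471 and 1488 CPM in WT, 1177, 1206 and 1174 in UNC5 and 1110, 1107 and 1056 in PATR1. The mutant groups lay close together and both below WT (-0.30 ± 0.035 and -0.42 ± 0.035), and their difference (-0.12 ± 0.035, adjusted p = 0.0024) was 0.03 without the filter. unc-68, the ryanodine receptor through which calcium leaves the store, changed by -0.14 ± 0.034 in UNC5 (adjusted p = 3.9e-04) and -0.75 ± 0.035 in PATR1. The dystrophin gene dys-1 read 97.8, 105.1 and 102.5 CPM in WT, 116.2, 115.8 and 116.1 in UNC5 and 80.0, 73.8 and 72.01 in PATR1. It fell in PATR1 (-0.44 ± 0.036), and its rise in UNC5 (0.19 ± 0.035) ended with the 6 libraries alone (adjusted p = 0.29), without the filter (adjusted p = 0.66) and in DESeq2 (adjusted p = 0.058).

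unc-45 (chromosome III, 491547 to 502625, plus strand), the chaperone that folds myosin, did not follow its clients. It read 92.8, 99.0 and 96.02 CPM in WT, 99.05, 97.55 and 95.6 in UNC5 and 109, 107 and 101 in PATR1. In UNC5 it overlapped with WT (0.02 ± 0.034, adjusted p = 0.58). In PATR1 it was slightly higher (0.14 ± 0.034, adjusted p = 4.4e-04), which did not pass with library sizes alone (0.01, adjusted p = 0.68) or with a filter at 5 CPM (0.03, adjusted p = 0.46).

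Pharyngeal genes were next each set against a chosen body wall gene for the same protein. Each ratio was taken within a library and does not depend on scaling. The log2 ratio of myo-2 to unc-54 counts was -3.90, -3.91 and -3.89 in WT, -4.56, -4.62 and -4.63 in UNC5 and -4.48, -4.48 and -4.46 in PATR1. tni-4 to unc-27 averaged -4.01 ± 0.12 in WT, -4.79 ± 0.068 in UNC5 and -4.57 ± 0.15 in PATR1. The ratio tnt-4 to mup-2 averaged -3.65 ± 0.052, -4.57 ± 0.048 and -4.55 ± 0.085, and tnc-2 to pat-10 -4.60 ± 0.056, -5.37 ± 0.15 and -5.42 ± 0.042. In UNC5 and in PATR1 all 4 ratios lay below every WT library, by 0.56 to 0.92 on the log2 scale between means. Exact permutation, two-sided over 3 and 3 libraries, returned p = 0.1 in these 8 comparisons, the smallest value possible at this size, and 0.12 after adjustment over the 12 tests made. The ratios depend on the partner chosen, and others were not taken. tni-3 changed by -1.0 in UNC5 and -0.81 in PATR1, against -0.33 and -0.77 for tni-4, while tni-1 rose in both. tnt-2 changed by -0.08 and -0.75, against -0.55 and -1.12 for tnt-4, and myo-3 by 0.34 and -0.39, against -0.94 and -1.2 for myo-2.

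Between the mutant groups the ratios differed less. In PATR1 myo-2 to unc-54 was 0.13 higher than in UNC5 and tni-4 to unc-27 0.22 higher, each without overlap (exact permutation p = 0.1). For tnt-4 to mup-2 (difference 0.02, exact permutation p = 0.7) and tnc-2 to pat-10 (-0.05, exact permutation p = 0.6) the libraries overlapped. The single-gene changes behind the ratios were not the same in both groups: in UNC5 unc-27, mup-2 and pat-10 rose and unc-54 fell, while the pharyngeal genes fell or did not pass, and in PATR1 both kinds fell, the pharyngeal genes by more. The regulator ceh-22 of pharyngeal muscle was also lower in both (log2 fold change -0.30 ± 0.11 in UNC5 and -1.17 ± 0.13 in PATR1), on 1.25 to 3.46 CPM.

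**Figure D4:**
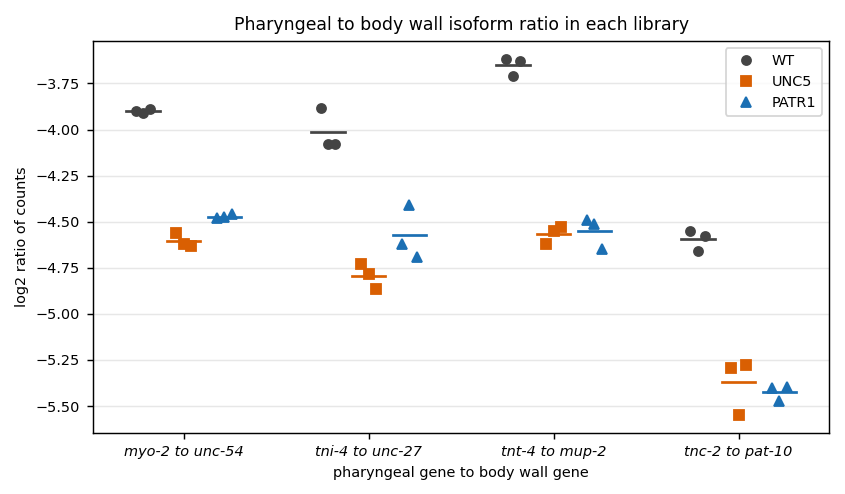
Log2 ratio of the counts of a pharyngeal gene to those of a chosen body wall gene for the same protein. There is 1 point per library and a bar at the group mean. In all 4 pairs the WT points lie above the UNC5 and PATR1 points, and for tnt-4 to mup-2 and tnc-2 to pat-10 the mutant groups overlap.

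Shares within the gene families were then taken. Of the summed level per length of the 4 actin genes of the list, act-2 made up 17.9% ± 0.34 in WT, 19.2% ± 0.18 in UNC5 and 31.0% ± 1.1 in PATR1. An actin gene outside the list was not counted in this sum. act-4 went from 55.6% ± 2.0 in WT to 45.4% ± 0.94 in PATR1, and remained the largest part. Among these 4 genes act-2 thus held a larger part in PATR1, within the uncertainty of reads shared between actins. Of troponin T, mup-2 and tnt-2 were level in WT, at 46.7% ± 1.1 and 46.9% ± 1.0, while mup-2 led with 54.7% to 55.3% in UNC5 and 56.4% ± 0.80 in PATR1.

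unc-54 made up 80.1% ± 0.036 of the heavy chains in WT, 79.5% ± 0.27 in UNC5 and 81.6% ± 0.16 in PATR1, and myo-3 made up 9.37% ± 0.063, 13.9% ± 0.15 and 11.2% ± 0.16. unc-27 kept a share near 80.4% ± 1.5 of troponin I in WT, with 79.5% ± 0.47 in UNC5 and 79.5% ± 1.3 in PATR1. Behind it, tni-1 went from 6.95% ± 0.84 in WT to 14.7% ± 0.55 in UNC5 and 12.2% ± 0.71 in PATR1, and tni-3 from 6.96% ± 0.40 to 2.51% ± 0.055 and 4.52% ± 0.35. tni-1 and tni-3 were thus level in WT and far apart in UNC5. These shares are descriptions, with no test.

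**Figure D5:**
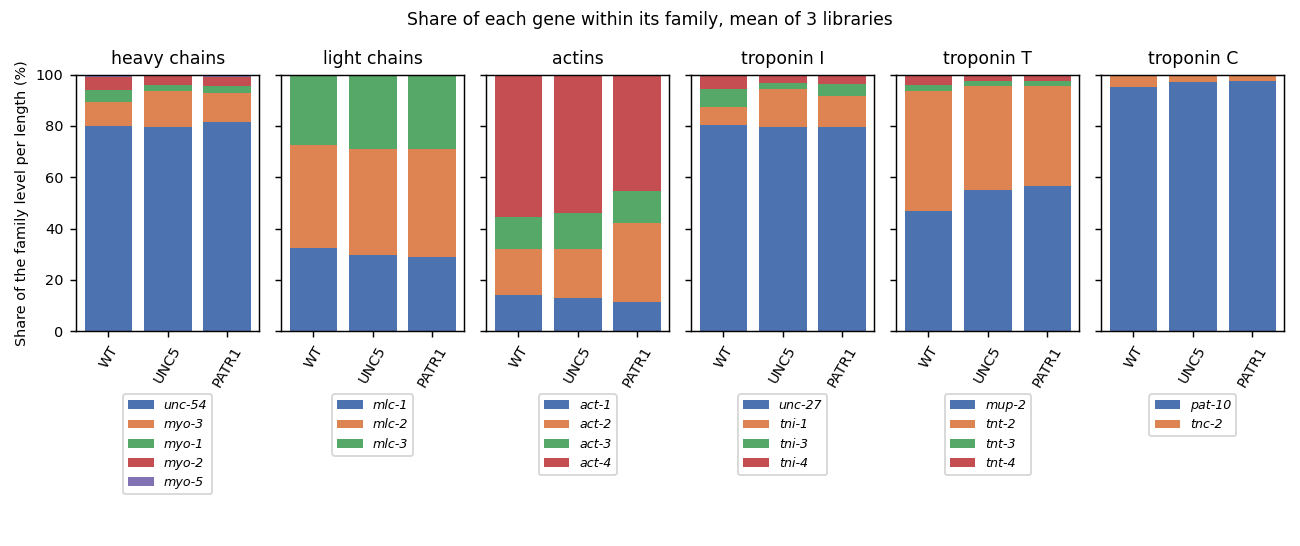
Share of each gene in the summed level per length of its family (%), mean of 3 libraries per group. The act-2 part is largest in PATR1 at 31.0%, and the tni-1 part of troponin I is larger in UNC5 (14.7%) and PATR1 (12.2%) than in WT (6.95%).

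The members lie on all 6 chromosomes, with 14 of the 48 on X, 12 on V and 9 on I. The members on X and on the autosomes had similar medians, 0.14 and 0.12 in UNC5 and -0.54 and -0.50 in PATR1. Over all genes tested the medians in PATR1 were -0.29 on X and -0.05 on the autosomes.

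Other genes of muscle and its attachment, listed apart from the 48, were also counted. Of 76 such genes tested, 46 rose and 16 fell in UNC5, 17 rose and 51 fell in PATR1, and 58 were lower and 8 higher in PATR1 than in UNC5, with medians of 0.18, -0.34 and -0.49. Over all genes 49.8% rose and 27% fell in UNC5, 38.7% rose and 44.9% fell in PATR1, and 40.9% were lower and 37.8% higher in PATR1 than in UNC5, with medians of 0.16, -0.11 and -0.04. The UNC5 counts became 30 and 29 with the 6 libraries alone. Of 22 genes of the dystrophin complex, channels and calcium, 21 fell in PATR1 and 1 rose. egl-19, the voltage-gated calcium channel of muscle, stood at 59.7, 61.5 and 66.0 CPM in WT, 59.8, 60.1 and 59.1 in UNC5 and 38.3, 36.9 and 37.5 in PATR1 (-0.73 ± 0.039, adjusted p = 1.6e-17). csq-1, the calcium store protein calsequestrin, was lower in PATR1 than in UNC5 (-0.69 ± 0.033), as was the muscle potassium channel gene twk-18 (-0.87 ± 0.040).

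From a list for nonmuscle myosin, other actin and chaperones 9 genes were tested. The symbol of a chaperone gene on it matched no gene, so that gene was not counted. Of the 9, 6 rose and 2 fell in PATR1, against 38.7% and 44.9% of all genes. In PATR1 against UNC5, 5 of the 9 were higher and 2 lower, against 37.8% and 40.9% of all genes. nmy-2, the nonmuscle myosin of the embryonic cortex and the germline, read 254, 255 and 244 CPM in WT, 316, 318 and 317 in UNC5 and 419, 394 and 393 in PATR1, the highest (0.68 ± 0.032, adjusted p = 8.7e-19). chn-1, a ubiquitin ligase gene whose product acts on UNC-45, also rose in PATR1 (0.71 ± 0.038, adjusted p = 1.9e-17). Among all 76 genes, the 6 with the smallest adjusted p in UNC5 included rises of the profilin gene pfn-3 (1.27 ± 0.042) and of mua-6, an intermediate filament gene that joins muscle to the cuticle (1.00 ± 0.033), and a fall of lim-8, whose LIM domain product binds UNC-97 (-1.02 ± 0.034).

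Of 6 muscle regulators 3 rose and 2 fell in UNC5, and 1 rose and 4 fell in PATR1. Over all genes 49.8% rose and 27% fell in UNC5, and 38.7% rose and 44.9% fell in PATR1. These shares apply to the marker genes below as well. unc-120 read 16.6, 17.25 and 13.6 CPM in WT, 22.3, 21.1 and 21.9 in UNC5 and 11.1, 11.2 and 10.8 in PATR1, and hlh-1 averaged 4.22, 5.64 and 2.92 CPM. Both were thus highest in UNC5 and lowest in PATR1. hnd-1, a further regulator of muscle fate, chosen after its values were seen, was higher in both mutants (1.64 ± 0.22, adjusted p = 6.2e-08, and 1.86 ± 0.21, adjusted p = 1.3e-09), at 0.236 to 1.25 CPM. The summed level of 3 germline genes (glp-1, gld-1, rme-2) was 993.5 to 1041 CPM in WT, 1293 to 1332 in UNC5 and 1770 to 1858 in PATR1. All 3 were higher in both mutants, as were 31.5% of all genes. They were also higher in PATR1 than in UNC5, as were 37.8% of all genes. The 3 intestine genes all fell in PATR1. Their sum, mostly vha-6, was 515 to 537 CPM in WT, 536 to 560.5 in UNC5 and 439 to 464 in PATR1. In UNC5 vha-6 rose (0.12), and elt-2 and ges-1 fell (-0.34 and -0.38). The 3 epidermis genes also fell in PATR1, with sums of 196.5 to 209, 184 to 194 and 148 to 155 CPM in the same order. In UNC5 dpy-7 rose (0.75), bli-1 fell (-0.84) and elt-3 did not pass (-0.01). The sum of 3 genes of gonad sheath and spermatheca, which also contract, was 720.3 to 748 CPM in WT, 697 to 711 in UNC5 and 694 to 728 in PATR1. Of these 3, fln-1 made up most of the sum and did not pass in either mutant (-0.06 and -0.05), lim-7 fell in both (-0.14 and -0.48) and fkh-6 fell in UNC5 (-0.27) and did not pass in PATR1 (-0.14). The sum of 2 sex muscle genes was 25.9 to 27.1, 37.8 to 39.7 and 21.5 to 22.8 CPM in the same order. Nearly all of it was egl-15, which rose in UNC5 (0.57) and fell in PATR1 (-0.24), while hlh-8 did not pass in either mutant (0.03 and -0.28). The sum of 3 sperm genes was 134.5 to 138 CPM in WT, 26.3 to 27.5 in UNC5 and 83.6 to 87.2 in PATR1, and that of 3 neuron genes 157 to 179, 232 to 236.5 and 204 to 211 CPM. Of the neuron genes, snb-1 made up most of the sum and rose in both mutants (0.52 and 0.42), rab-3 rose in UNC5 (0.17) and fell in PATR1 (-0.71), and unc-119 rose in UNC5 (0.23) and did not pass in PATR1 (0.09). The part of these tissues in the levels of the 48 genes was not tested.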

How the data were processed

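The submitters' processing notes name FastQC 0.11.9, cutadapt 3.5, STAR 2.7.11b and the build WBcel235, and the design text names STAR as the aligner. The deposited values are raw counts per gene without normalization, and the reverse-strand counts were used. Positions and exon lengths came from Ensembl release 115 of WBcel235, which held 46918 of the 46926 identifiers.

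All 17512 genes kept by filterByExpr were fitted over the 9 libraries with edgeR 4.0.16 (R 4.3.3), with TMM factors from 0.954 to 1.04, a robust quasi-likelihood test and Benjamini-Hochberg adjustment. A gene "rose" or "fell" at an adjusted p below 0.05. RPKM used the union of exons, and count ratios a pseudocount of 0.5. Scripts were tested on simulated data.

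Replicate numbers did not pair libraries. The members, lists and tests were chosen with earlier results of these data known. All 48 members could be named, and of the other muscle genes the 6 with the smallest adjusted p per comparison. Outside that rule stand hnd-1 and the cell type markers named singly, among them hlh-1, unc-120 and ceh-22. In the list of other muscle genes 1 symbol matched no gene. The alternatives were relative log expression factors, unscaled library sizes, no low-count filter, 5 CPM in 3 libraries, DESeq2 1.42.0, unstranded counts, the 6 libraries compared, the replicate block and leaving out each library.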

Additional observations from a re-analysis of the deposited data

Results flagged for a closer look

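For 23 members the mutant groups stood on opposite sides of WT, above it in UNC5 and below it in PATR1, and differed in the direct comparison of PATR1 with UNC5 (edgeR, adjusted p below 0.05). The log2 difference of PATR1 from UNC5 was -0.73 for myo-3, -0.50 for unc-15, -0.69 for mlc-2 and -0.75 for mlc-3 in the thick filament, and -0.82 for unc-89 and -0.83 for ttn-1 among the giant proteins. In the thin filament it was -0.66 for unc-27, -0.59 for mup-2, -0.80 for pat-10, -0.53 for lev-11, -0.50 for act-3, -0.55 for unc-78 and -0.77 for unc-87. At the attachment sites it was -0.75 for pat-2, -0.73 for pat-6, -0.76 for unc-112, -0.75 for unc-97, -0.88 for unc-95, -0.71 for unc-98, -0.74 for deb-1, -0.70 for alp-1, -0.70 for dim-1 and -0.62 for dys-1. A lower level in PATR1 than in UNC5 follows from how these 23 genes were chosen, so it is no separate support. The direct difference kept its call and direction under every alternative tried for these 23, and for 46 of all 48 members. A call against WT was lost in at least 1 alternative for 10 of the 23. Among these 10 the UNC5 value turned sign for unc-15, lev-11, unc-97 and alp-1, and kept its sign for the others.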

How the results depend on the processing

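Direction and call of members in PATR1 against WT held under every alternative for 44 of 47 called genes (not pat-10, act-3 and unc-45), and in PATR1 against UNC5 for 46 of 48 (not unc-45 and sca-1). In UNC5 against WT they held for 27 of 39, and the cause was not tested. The members higher in UNC5 numbered 17 without a filter, and those lower 19 with relative log expression factors, 21 without a filter and 20 with the 6 libraries alone. The other muscle genes higher in UNC5 numbered 26 and 30, and those lower 29 and 29, without a filter and with the 6 libraries alone. In PATR1 against UNC5, 15 of them were higher without a filter.

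The log2 changes in UNC5 that turned sign were, with relative log expression factors, -0.06 in mlc-1, -0.08 in unc-45, -0.01 in unc-97, -0.09 in unc-96, -0.09 in zyx-1 and -0.01 in alp-1. In DESeq2 they were -0.06 in mlc-1, -0.08 in unc-45, -0.01 in unc-97, -0.10 in unc-96, -0.09 in zyx-1 and -0.01 in alp-1. With library sizes alone they were -0.01 in mlc-1, -0.03 in unc-45, -0.04 in unc-96 and -0.04 in zyx-1, and with the filter at 5 CPM -0.02, -0.04, -0.06 and -0.05 in the same genes. Without a filter they were -0.06 in unc-15, -0.12 in mlc-1, -0.03 in lev-11, -0.05 in act-2, -0.15 in unc-45, -0.08 in unc-97, -0.16 in unc-96, -0.16 in zyx-1 and -0.08 in alp-1. With the 6 libraries alone they were -0.04 in unc-15, -0.11 in mlc-1, -0.01 in lev-11, -0.03 in act-2, -0.13 in unc-45, -0.06 in unc-97, -0.14 in unc-96, -0.14 in zyx-1 and -0.06 in alp-1. act-1 was 0.04 with unstranded counts. Without WT replicate 1 unc-45 was -0.01, unc-96 -0.03 and zyx-1 0.00, without WT replicate 2 pat-4 was 0.01, without WT replicate 3 act-4 was 0.00, and without UNC5 replicate 3 unc-96 was -0.03. In PATR1 against WT unc-60 was -0.07 with library sizes alone and -0.06 with the filter at 5 CPM, and in PATR1 against UNC5 sca-1 was 0.03 without a filter.

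With unstranded counts the difference of the tnt-4 to mup-2 ratio was -0.857 in UNC5 against WT and -0.016 in PATR1 against UNC5, and leaving out single libraries gave -0.012 to 0.066 for the latter. With the replicate block 27 members rose and 12 fell in UNC5, 4 rose and 43 fell in PATR1, and 3 were higher and 45 lower in PATR1 than in UNC5, as without it. The pairing had no basis in the data, as deviations of same-numbered libraries correlated between -0.073 and 0.073, and 0 libraries correlated best with their own number. With the length of the longest transcript 6 of 22 family shares in WT moved by more than their SD, such as mlc-3 from 27.4% to 32.7%.

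Depth did not limit the members, at 362 counts or more per library. The median log2 change of all genes in UNC5 ranged from 0.16 in the fit used to 0 without a low-count filter, so changes of that size depend on the processing. Larger rises also lost their call under an alternative, namely act-3 (0.17), unc-78 (0.19), dys-1 (0.19), mlc-2 (0.21) and pat-6 (0.24).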
